A study of Bos taurus with 12 samples.

Results

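Among the genes nearest to the listed methylation tiles of bull sperm are 8 transcription factor genes of embryonic patterning. They are the homeobox genes HOXA2, OTX2, EN1, NKX2-1 and LHX8, the T-box genes TBX2 and TBX5, and the zinc finger gene ZIC1. They were chosen by exact gene name in the annotation of the authors' deposited table, with earlier results of these data known, and hold 22 of its 7290 tiles and 8 of its 540 gene IDs. The study profiled sperm DNA of bulls (Bos taurus) by enzymatic methylation sequencing, in which enzymes convert unmethylated cytosines so that they are read as T. It has 6 samples labelled low BFI and 6 labelled high BFI, in a series on markers of bull fertility. The labels do not spell out BFI, and give no breed, age or statement that each sample is a separate bull. The samples were sperm of males in both groups, and no treatment or genotype is given.

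The deposited file is a comparison of the 2 groups, which lists the methylation difference of each 500 bp tile with its p-value and q-value. The differences were read as percentage points. The direction of subtraction is not stated, so a negative value cannot be assigned to the low BFI or the high BFI samples as the less methylated. Values per sample and sequencing depth were not analysed here, and methylation levels are therefore unknown. To show the error that each deposited p carries, a 95% interval was derived from the p and the difference, reading the p as a two-sided normal test. This interval restates the authors' own test and holds no measure of its own of the spread between bulls. All positions are those of the deposited table, whose assembly is ARS-UCD1.2 per the submitters' processing notes.

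Homeobox, T-box and ZIC proteins bind DNA and switch other genes on or off in the embryo, where they set the identity of body regions, limbs and organs. Homeobox proteins do so with a homeodomain, T-box proteins with a T-box domain and ZIC proteins with zinc fingers. In human and mouse sperm, the promoters of many such developmental genes are known to carry little DNA methylation.

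The 8 genes showed small differences, and like the table as a whole most of these were negative. Tiles of HOXA2, TBX2, ZIC1 and TBX5 passed a q under 0.05 in the authors' deposited table, all with a negative difference, and no tile of OTX2, EN1, NKX2-1 or LHX8 did. The 22 differences ran from -1.47 to 0.31 percentage points in the authors' deposited table, with a median of -0.45. Negative values were found at 19 of the 22 tiles (86.4%), against 71.6% of all 7290 listed tiles. Tiles of one gene shared 300 to 400 of their 500 bp with the next, so the 22 tiles make up 8 separate loci, 1 per gene. Taking for each locus the tile with the smallest q, 6 of the 8 were negative.

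In total 11 of the 22 tiles (50.0%) passed a q under 0.05, all negative, against 71.8% of all listed tiles in either direction and 55.9% with a negative difference. At a p under 0.05 the count was 8 of 22, against 65.8% of listed tiles. Of the 8 genes, 4 had a tile under that q, against 73.3% of all genes with an ID in the table. A gene with more tiles can more easily hold a passing one, and the 540 genes held 3318 tiles, against 22 for these 8. None of the 22 tiles combined that q with a difference of at least 10 percentage points, which 2.78% of listed tiles did. The shares of these genes were thus below those of the table as a whole.

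**Figure D1:**
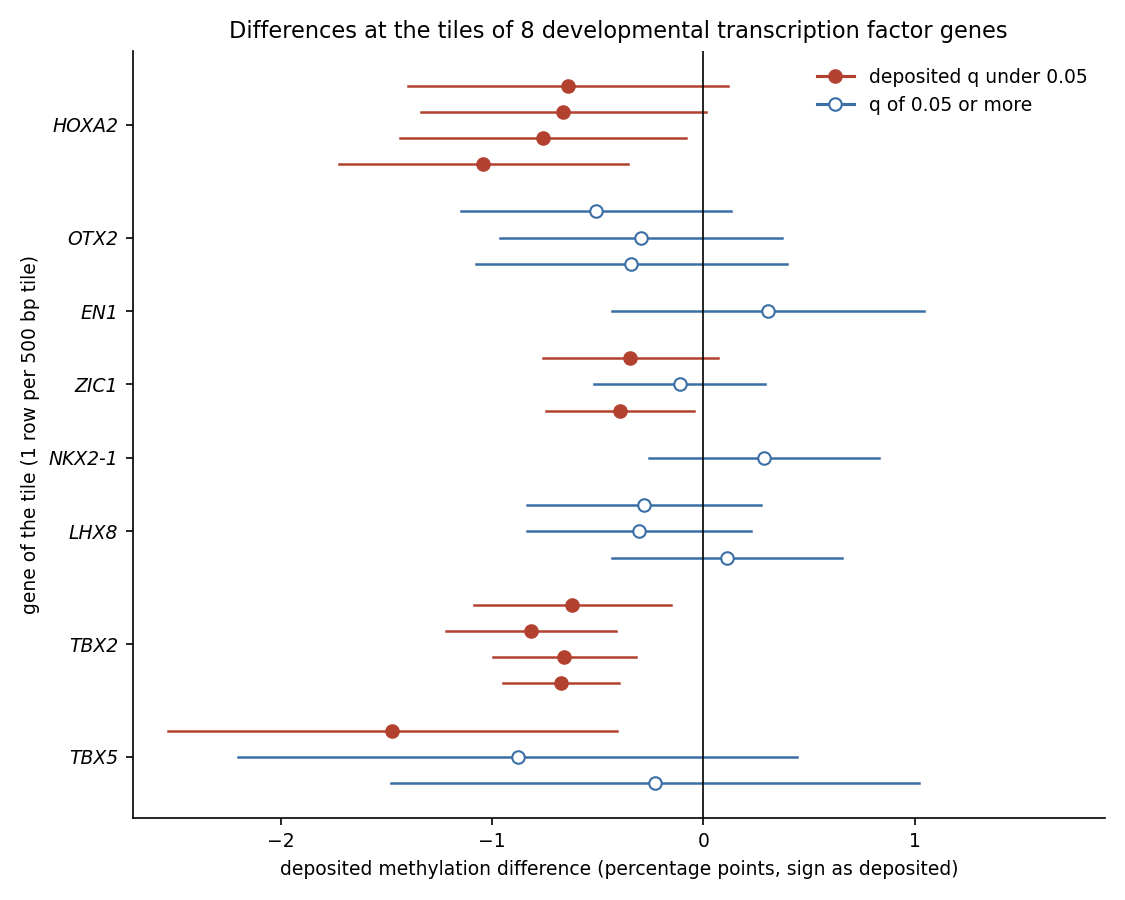
Deposited methylation difference (x axis, percentage points) of each of the 22 tiles, grouped by gene and in chromosome order from top to bottom within a gene. Points are the deposited differences, lines the 95% intervals implied by the deposited p, and filled red points the 11 tiles with a q under 0.05. All 11 lie below 0, and the only 3 points above 0 belong to EN1, NKX2-1 and LHX8.

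HOXA2 is a Hox gene of the anterior end of its cluster, required in mice for the identity of the second pharyngeal arch and for hindbrain segments. Its 4 tiles lay on chromosome 4 between 68938601 and 68939400 and were classed as promoter. From the tile farthest from exon 1 to the nearest, the authors' deposited table gives differences of -0.64, -0.66, -0.76 and -1.04 percentage points. The size thus grew with each step of 100 bp toward the gene, and the last tile overlapped exon 1, which spans 68939317 to 68939879, by 84 bp. The q-values in the authors' deposited table were 0.0411, 0.0238, 0.0135 and 0.00174, in the same order. Their p-values were 0.0984, 0.0539, 0.0278 and 0.00289, so that the 2 tiles farthest from the exon passed by q and not by p. The implied interval of the tile over exon 1 was -1.73 to -0.36 percentage points, and that of the farthest tile, -1.40 to 0.12, held 0. Adjacent tiles share 400 bp, so the 4 values are not separate measurements.

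OTX2, needed in mice for the forebrain and midbrain and later for the retina, had 3 tiles at an intron on chromosome 10, between 69219101 and 69219900. All were negative in the authors' deposited table, at -0.51, -0.30 and -0.34 percentage points, with q-values of 0.101, 0.243 and 0.234. None passed. The implied interval of the largest was -1.15 to 0.13 percentage points. The first tile lay in the intron, which ends at 69219573, over 473 bp, while the last reached beyond the intron and overlapped it by 173 bp. The closest CpG island of the table, 5880 bp from the first tile, carried a tile that the authors' deposited table lists at 0.21 percentage points, with a q of 0.262.

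EN1 acts at the midbrain-hindbrain boundary and in the ventral limb ectoderm of mice. Its single tile, on chromosome 2 from 70609401 to 70609900, did not pass. The authors' deposited table lists it at 0.31 percentage points with a q of 0.102, and its implied interval was -0.43 to 1.04. It was classed as downstream, yet it overlapped exon 2 (70609618 to 70610398) by 283 bp and a CpG island (70609088 to 70609645) by 245 bp. Tiles that share 400 and 300 bp with it were listed under that island. In the authors' deposited table the nearer stood at 0.41 percentage points with a q of 0.0726, and the farther at -0.70 with a q of 0.0133. Of the 3 overlapping tiles, the one that passed was thus negative and the other two were positive.

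ZIC1 is a zinc finger factor of the neural plate border and cerebellum in mice. All 3 of its tiles lay wholly in coding sequence on chromosome 1, between 120899601 and 120900300. The authors' deposited table lists -0.35, -0.11 and -0.39 percentage points, with q-values of 0.0361, 0.169 and 0.0109. The outer tiles passed and the middle one did not, although it shares 400 bp with each of them. By the deposited p of 0.0273, the tile at -0.39 was also the only one under 0.05 without adjustment. The implied intervals of the 3 tiles together ran from -0.76 to 0.29 percentage points. In a window of 50000 bp to either side, 4 more tiles were listed, the nearest 17201 bp away, and none passed. The largest of them lay within a CpG island, listed at 0.27 percentage points with a q of 0.0831 by the authors' deposited table.

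NKX2-1 is required for the thyroid, the lung and the ventral forebrain. It had a single tile on chromosome 21, from 46706301 to 46706800, classed as promoter and 403 bp from the coding sequence. The authors' deposited table lists that tile at 0.29 percentage points with a q of 0.112, and its implied interval was -0.26 to 0.83. It overlapped by 410 bp a CpG island that spans 46702502 to 46706710. A tile listed under the island and sharing 400 bp with it was listed at 0.31 percentage points (q = 0.127) and one 1501 bp beyond it at 0.09 (q = 0.224) by the authors' deposited table. Around NKX2-1 the 3 listed tiles were all positive, and none passed.

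LHX8 acts in cholinergic neurons of the basal forebrain and, in mice, in the oocyte. On chromosome 3 it had 3 tiles between 69663501 and 69664200, classed as promoter and 1261 to 1461 bp from a 5′ UTR. The authors' deposited table lists them at -0.28, -0.30 and 0.11 percentage points, with q-values of 0.182, 0.155 and 0.330. LHX8 was the only one of the 6 genes with more than 1 tile whose tiles did not all have the same sign. Over its 3 tiles the implied intervals ran from -0.83 to 0.66 percentage points. No other listed tile lay within 500000 bp.

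TBX2, a transcriptional repressor of the developing heart and limb, had the tile with the smallest p-value of the 8 genes. Its 4 tiles lay at an intron on chromosome 19, between 11691201 and 11692000, and 3 of them lay wholly in the intron (11690844 to 11691962). The authors' deposited table gives -0.62, -0.82, -0.66 and -0.67 percentage points in chromosome order. All 4 passed, with q-values of 0.00852, 8.62e-05, 0.000165 and 2.59e-06 in the authors' deposited table. TBX2 was the only gene of the 8 whose implied intervals all lay below 0, from -1.22 at the lowest edge to -0.15 at the highest. The smallest q belonged to the tile at -0.67 and not to the largest difference. The standard error implied by the p was 0.140 percentage points at that tile and 0.205 at the tile with -0.82.

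TBX5, needed for the heart and the forelimb, was assigned its 3 tiles from afar. They were classed as distal intergenic, 120348 to 120548 bp from an intron of the gene, on chromosome 17 between 60437901 and 60438600. The authors' deposited table gives -1.47, -0.88 and -0.23 percentage points, with q-values of 0.00362, 0.0650 and 0.186. The first of these was the largest difference of the 8 genes, and the only TBX5 tile that passed. Its implied interval of -2.53 to -0.41 percentage points was also the widest but for the other two TBX5 tiles. The values of the first and last TBX5 tile differed more widely than those of any other of the 8 genes, although neighbouring tiles share 400 bp. The next listed tile of chromosome 17 lay 3377601 bp away.

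**Figure D2:**
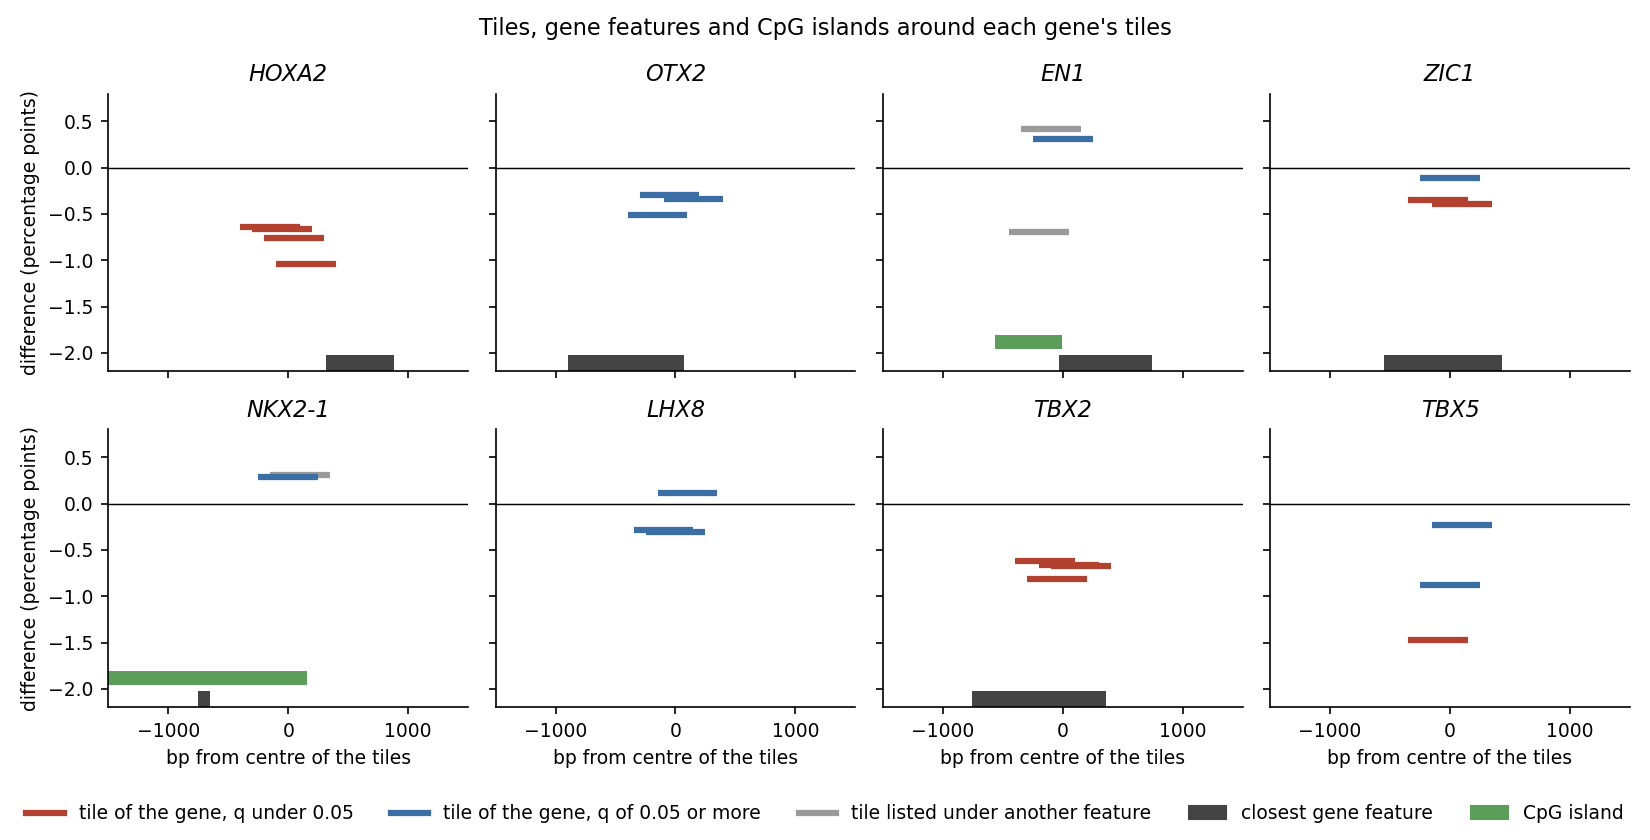
Tiles around the centre of each gene's listed tiles (x axis, bp in chromosome direction; y axis, deposited difference in percentage points). Red and blue bars are the gene's tiles with a q under 0.05 and of 0.05 or more, grey bars tiles listed under another feature, black blocks the closest gene feature and green blocks CpG islands of the table. The HOXA2 tiles step down toward exon 1, TBX5 has no gene feature in the window, and the overlapping tiles at EN1 lie on both sides of 0.

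By position, the 10 tiles classed as within a feature (TBX2, OTX2 and ZIC1) were all negative, against 64.4% of other listed within-class tiles with a gene ID. Their median size was 0.451 percentage points, against 0.886 in those other tiles, and 6 of the 10 passed the q, against 66.9%. Negative were also 6 of the 8 promoter-class tiles (75.0%), against 71.7% of the other promoter-class tiles with a gene ID. Of these 8 promoter-class tiles (HOXA2, LHX8 and NKX2-1), 4 passed, all of HOXA2, against 73.5% of the others. The median size was 0.471 percentage points at these 8 tiles and 1.23 at the others. Each class holds only 3 of the genes, and no test of these differences was made.

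In size, every tile of the 8 genes lay in the lower part of the table. Between 6.01% and 49.7% of all listed tiles had a smaller difference than a given one of the 22, and the highest of these shares belonged to the TBX5 tile at -1.47. Only that tile and the HOXA2 tile over exon 1 reached 1 percentage point, 9.09% of the 22, against 59.0% of the other listed tiles. The median size was 0.451 percentage points over the 22 tiles and 1.50 over the other 7268. The median implied standard error was 0.304 percentage points over the 22 tiles and 0.497 over the others. Depth and methylation level both enter that error and cannot be told apart here. On their own chromosomes, the listed tiles other than those of these genes had median sizes of 0.592 (chromosome 17, TBX5) to 2.07 percentage points (chromosome 1, ZIC1). The TBX5 tile at -1.47 ranked 9 of the 63 tiles of chromosome 17 by size, and the HOXA2 tile at -1.04 ranked 108 of the 184 of chromosome 4.

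**Figure D3:**
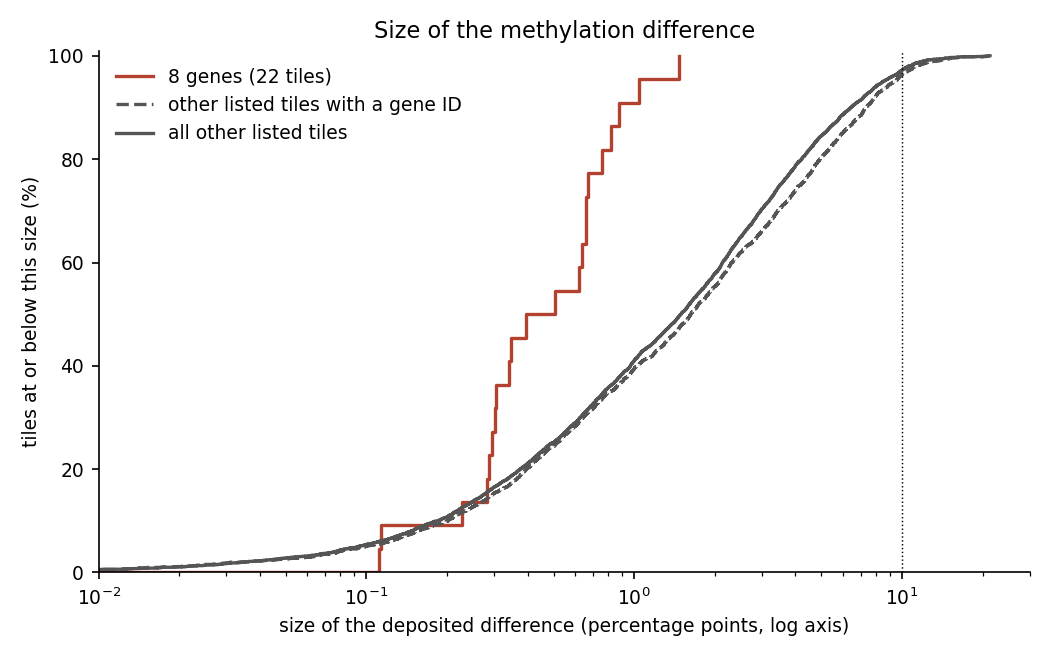
Cumulative share of tiles (y axis, %) by the size of the deposited difference regardless of sign (x axis, percentage points, log axis). The red line holds the 22 tiles of the 8 genes, the dashed line other listed tiles with a gene ID and the solid grey line all other listed tiles, with a dotted line at 10 percentage points. The red line reaches 100% at 1.47 percentage points, a size that exceeds 49.7% of all listed tiles.

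The q threshold did not mean the same p for each gene. Within each of the 27 chromosomes of the table the deposited q never fell as the p rose, whereas over the whole table it did so 2744 times between neighbouring p-values. The largest p that still had a q under 0.05 ranged from 0.0184 to 0.503 between chromosomes. For the 8 genes, each on its own chromosome, it ran from 0.0415 on chromosome 10 (OTX2) to 0.165 on chromosome 2 (EN1). It was 0.115 on chromosome 4, where the HOXA2 tile with a p of 0.0984 passed, 0.141 on chromosome 1 (ZIC1) and 0.0738 on chromosome 19 (TBX2). The q was below the p at 19 of the 22 tiles, and at 5007 of all 7290 listed tiles. Tiles under 0.05 by q and not by p numbered 3 of the 22 and 441 of all listed tiles. When the deposited p-values were adjusted together over all 7290 tiles by the Benjamini-Hochberg method, an alternative chosen after seeing the data, 8 tiles of the same 4 genes were under 0.05. These were all 4 of TBX2, 2 of HOXA2, 1 of ZIC1 and 1 of TBX5, and 3 tiles (2 of HOXA2 and 1 of ZIC1) no longer passed. The share of all listed tiles under that adjustment is not reported here, so the count has no background beside it.

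**Figure D4:**
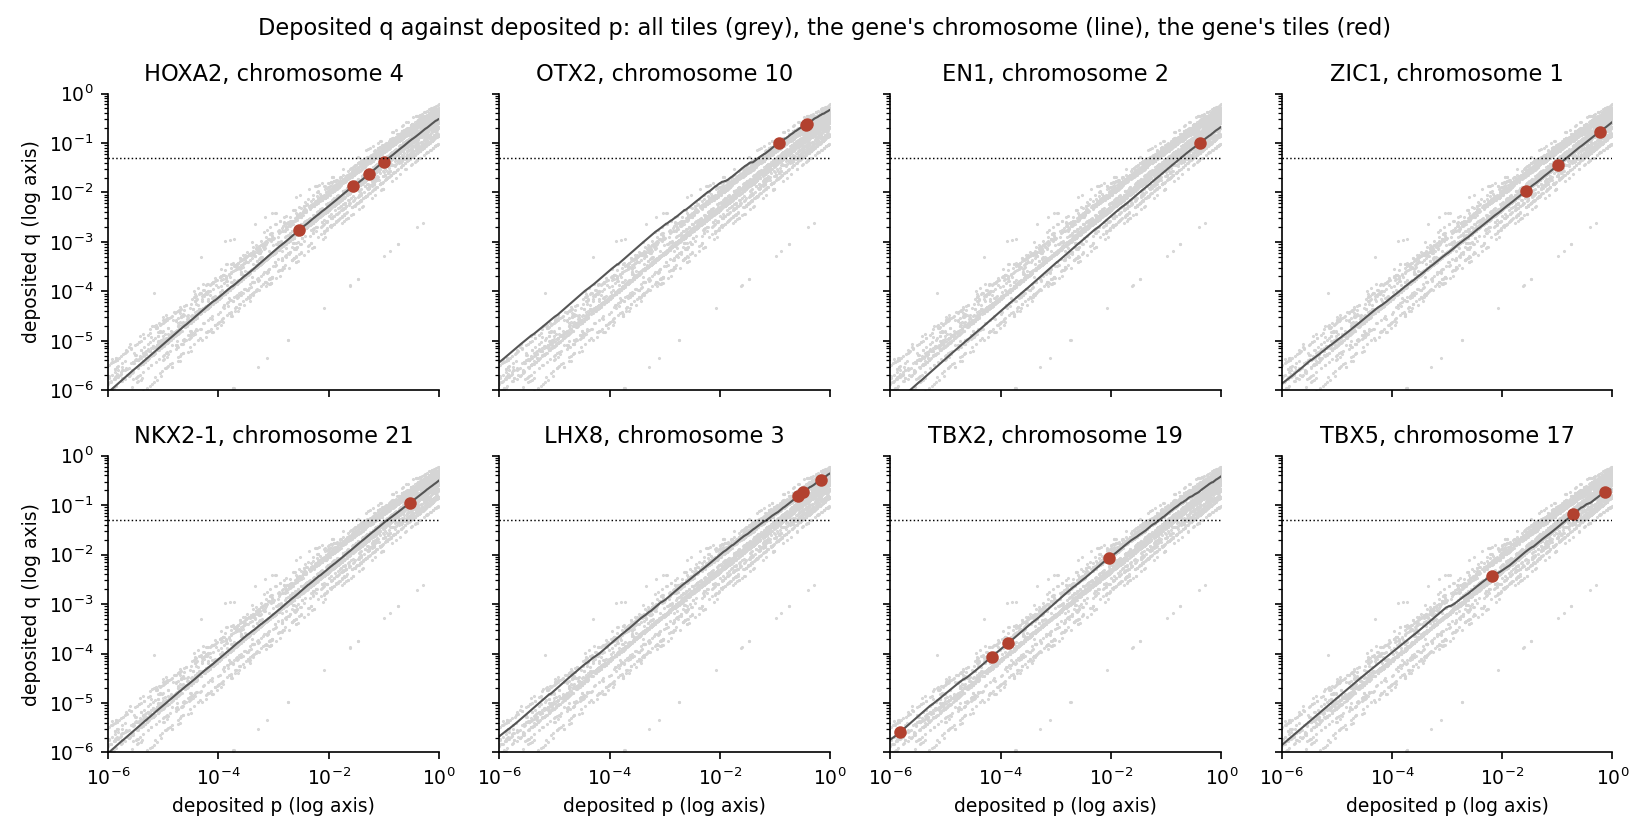
Deposited q (y axis, log axis) against deposited p (x axis, log axis), 1 panel per gene. Red points are the gene's tiles, the dark line all tiles of its chromosome, grey points all tiles of the table, and the dotted line a q of 0.05. Each gene's tiles lie on the line of their chromosome, which crosses the dotted line at a p of 0.0415 for OTX2 and 0.165 for EN1.

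Other transcription factor genes of the table were taken by a list of family names and phrases in their descriptions. The first set held 15 genes with 42 tiles, found by family names such as homeobox or by the words transcription factor. It is thus not purely developmental, and also holds heat shock factors and the zinc finger factors GLIS3 and IKZF1, found by family name. The second set, called the zinc finger set, held 16 genes with 213 tiles, found by zinc finger phrases. In the first set 5 genes had a tile under the q of 0.05, 3 with negative and 2 with positive differences. None of its 3 homeobox genes, which had 6 tiles, was among them. In the zinc finger set 9 did, 5 with negative, 3 with positive and 1 with both. Over all 540 genes the share with a tile under that q was 73.3%. The 4 passing genes among the 8 described above were all negative. Negative differences also prevailed among all listed tiles that passed, with 4074 negative and 1162 positive. Whether the 8 genes differ in sign from the other sets was not tested. The median over genes of the largest difference was 0.451 percentage points for these 8 genes, 0.209 for the first set, 0.554 for the zinc finger set and 0.837 for all 540 genes. For the 3 homeobox genes of the first set it was 0.123. The sets differ in tiles per gene, which also enters a largest value.

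The genes of the list were ranked by the size of their largest passing difference. For each of the first 6 genes this size was larger than that of any tile of the 8 genes, and the same held for the next gene in rank. The authors' deposited table lists GLIS3, a Krüppel-like zinc finger factor, at -13.9 percentage points with a q of 8.63e-31. It lists IKZF1, the lymphoid factor Ikaros, at 4.97 with a q of 3.25e-06. A heat shock factor gene described there as Y-linked-like stood at -4.07 percentage points with a q of 0.00145, at a tile 57553 bp from the gene. Of the zinc finger set, the authors' deposited table lists ZNF331 at -5.89, ZNF75D at 3.23 and ZNF227 at -2.17 percentage points, with q-values of 5.08e-09, 1.82e-12 and 0.00256 in that order. Those are the tiles with the largest passing difference. ZNF331 held 176 of the 213 zinc finger tiles and was the gene with both signs, its tiles running from -5.89 to 3.47 percentage points in the authors' deposited table, 91 of them passing with negative and 8 with positive differences. These 3 genes belong to a multigene family and are reported as uncertain, since the uniqueness of their reads was not tested.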

How the data were processed

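Sperm DNA was profiled by enzymatic methylation sequencing, per the labels' protocols. Trimmomatic, Bismark and methylKit are the tools, and ARS-UCD1.2 and bosTau9 the builds, per the submitters' processing notes, which give neither versions nor settings. Per the file headers, the deposited table holds for each tile the methylation difference, its p-value and q-value, and the closest annotated feature. The deposited distance equals that from the tile's start to the nearest edge of the feature in all 7290 tiles, and gaps and overlaps were recomputed from the edges. Sequencing depth is unknown. The deposited table has no columns of per-sample values, so there were none to match to the samples.

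The 22 tiles were found by exact description. The members, lists and thresholds were chosen with earlier results of these data known. The groups were not tested anew. A tile passed at a deposited q under 0.05. Intervals of 95% are the difference plus or minus the normal quantile times the standard error that the deposited p implies. Every tile of the 8 genes was given, and of the list of other factors the 6 with the largest passing difference. All 8 symbols were found on the same chromosome in a RefSeq gene table (ARS-UCD2.0), used for names only. Promoter and protein sequences, which had been planned, were not used here. One gene of the list of other factors is not reported by name here. Helper functions were tested on simulated data. Tables were computed with pandas 2.3.3, SciPy 1.17.1 and NumPy 2.4.6 in Python 3.11.15, and figures drawn with matplotlib 3.10.9.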

Additional observations from a re-analysis of the deposited data

How the results depend on the processing

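Of the 22 tiles, 11 passed the q of 0.05 as deposited and 6 passed a q under 0.01. The share of all listed tiles under 0.01 is not reported here, so the 6 have no background beside them. When either HOXA2 or TBX2, the 2 genes with most tiles, was left out, 7 of the remaining 18 tiles passed the q of 0.05. Of all listed tiles 71.8% did. With 1 tile per locus, 4 of 8 passed and 6 were negative. With a minimum difference of 1 percentage point, 2 tiles of 2 genes were left, both passing and negative, with a median of -1.26 percentage points. With a minimum of 10 no tile was left. All other values stayed within 1.5 times of those reported: those with the deposited p, with Benjamini-Hochberg adjustment over all listed tiles (chosen after seeing the data), with tiles within 10000 bp of the feature, and without distal intergenic tiles. No value changed sign. Both of the last settings removed TBX5 alone, leaving 3 passing genes. No paired analysis was possible because the labels share no replicate numbers between the groups and the table holds no values per sample. The unknown depth and direction limit every value.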

Other observations

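In a window of 500000 bp to either side of the genes' tiles, chosen after the values were seen, 10 of 19 other listed tiles passed the q of 0.05, against 71.8% of all listed tiles. These 19 include the 9 tiles within 50000 bp, of which 1 passed, at the island beside EN1. By sign, 7 of the 9 were positive and 2 negative, and 12 of the 19 were positive and 7 negative. Among all listed tiles 71.6% were negative. The mostly negative sign of the 22 tiles thus did not extend to these other tiles, many of which overlap each other, and the difference was not tested. The tiles added by the wider window lay in overlapping runs near HOXA2 and OTX2, and it added none for the other 6 genes. Near HOXA2, the other listed tiles closest to its own lay at a CpG island, the nearest of them 146501 bp away, and were positive. The authors' deposited table lists them at 2.02, 1.48 and 1.13 percentage points, the smallest q being 1.55e-07, while those of HOXA2 were negative. The island tiles share bases with each other, and whether the 2 loci differ was not tested. In the 3-hydroxyisobutyrate dehydrogenase gene, 463801 to 464201 bp from HOXA2, the sign changed between overlapping tiles, with -0.73 percentage points (q = 0.00499) for an intron tile and 0.97 (q = 0.00212) for an island tile in the authors' deposited table. On the OTX2 side, both tiles 72 and 172 bp from a CpG island on chromosome 10, 212901 bp or more from the OTX2 tiles, were listed at -2.69 percentage points by the authors' deposited table, with q-values of 0.000351 and 0.00234.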
